A study of Mus musculus with 6 samples.

Results

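The genes described here are 33 genes of the lysosome, taken by symbol from a list of hydrolases, their cofactors, lysosomal membrane proteins and the regulator Tfeb. All 33 of 33 were measured, out of 19938 genes with a symbol on the array, and each was read by 1 probe set. CD8+ T cells with low surface CD44, a gate that takes mostly naive cells, were sorted by flow cytometry from suspensions of spleen and lymph node. They came from mice of 10 weeks on a C57BL/6 background that were either wild type (Roquin+/+, 3 arrays) or homozygous for the sanroque allele of Roquin (Roquinsan/san, 3 arrays). Roquin is the RNA-binding repressor encoded by Rc3h1, and sanroque is a germline point mutation, so every cell of the mouse carries it. The labels name no treatment, call the samples biological replicates and do not say whether cells of several mice were pooled.

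The lysosome is the acidic compartment in which cells digest proteins, glycans and lipids brought in by endocytosis or autophagy. Its soluble enzymes are carried there mostly by the mannose-6-phosphate route, its membrane is lined by heavily glycosylated proteins such as LAMP1 and LAMP2, and a proton pump keeps it acidic. The transcription factor TFEB binds a CACGTG-containing element, named CLEAR, in front of many lysosomal genes. In cytotoxic T cells the lytic granules are modified lysosomes, and cathepsin C trims granzymes to their active form there. Monocytes and macrophages carry more lysosomes than naive T cells do.

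Promoter sequences were read for the letters of the CLEAR element. That element is known from many lysosomal genes, so its share among these members is not independent of how the list was made. The RefSeq promoter table (GRCm38.p6, from 250 bases before to 50 after a gene's start) held 27 of the 33 members, and Asah1, Ctsb, Ctse, Ctsh, Laptm4b and Npc1 were not among them. The letters CACGTG, which read the same on both strands, occurred in 8 of these 27 members (29.6%) and in 8.09% of the 27025 genes of the table. The longer core TCACGTGA, also the same on both strands and containing CACGTG, occurred in 4 of the 27 (14.8%) and in 1.12% of all genes. The stretches below were chosen after the matches were seen, because Gaa is the member with a match that passed the expression test, Ctsd, Gla and Mcoln1 are 3 of the 4 with the longer core, and Lamp1 has the most copies before its start. Capitals mark CACGTG or, where present, TCACGTGA.
Gaa (chr11:119267803-119267848, + strand): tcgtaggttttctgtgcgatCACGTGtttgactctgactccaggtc
Ctsd (chr7:142387900-142387945, - strand): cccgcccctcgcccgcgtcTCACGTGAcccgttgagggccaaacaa
Gla (chrX:134601174-134601252, - strand): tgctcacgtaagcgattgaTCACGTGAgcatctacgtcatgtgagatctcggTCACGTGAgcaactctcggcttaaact
Lamp1 (chr8:13159080-13159160, + strand): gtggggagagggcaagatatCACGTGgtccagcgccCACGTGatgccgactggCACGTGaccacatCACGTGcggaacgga
Mcoln1 (chr8:3500428-3500499, + strand): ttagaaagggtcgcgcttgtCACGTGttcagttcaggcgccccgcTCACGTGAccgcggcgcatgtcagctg
The Gaa copy begins 140 bases before the gene start, and the 4 Lamp1 copies lie between 61 and 15 bases before it. Ctsa, which also holds TCACGTGA, Ctsl and Glb1 were the other members with CACGTG in the window. Grn and Psap, which also passed the expression test, had no CACGTG in these windows. The 8 members with the letters had a median log2 fold, sanroque minus wild type, of 0.00 with 1 called higher, and the 19 members without had -0.01 with 2 called higher. This split leaves out Ctsh and Ctsb, which were called too and include the largest fold. A match describes letters in a window and does not show binding.

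Some features of the arrays bear on every value that follows. Median intensities per array lay between 53.6 and 56.9. Xist, the transcript of the inactive X chromosome, read 11.20 in sanroque replicate 1 and 4.02 to 4.17 in the other 5 arrays (log2 intensity). Cd8a, a defining gene of the sorted cells, averaged 13.02 ± 0.03 in the wild-type arrays and 13.00 ± 0.02 in the sanroque arrays (SD, n = 3 each). All 7 measured CD8 T cell markers had log2 folds below 0, and Cd3d, a chain of the T cell receptor complex, fell by 0.52 (limma adjusted p = 0.0263). Their summed linear intensity was 36160 to 37380 for wild type against 33110 to 34210 for sanroque, without overlap. Of all 19938 genes, 7673 had log2 folds above 0. Rc3h1, which carries the point mutation, averaged 10.00 ± 0.10 and 10.15 ± 0.16, and its level does not check the genotype labels. Cd44, the gene of the sort marker, was 2.63-fold higher in sanroque, at 5.98 to 6.43 against 7.34 to 7.90 (log2 intensity). Markers of other cells moved with genotype: 13 of 15 myeloid markers and 7 of 12 B cell markers passed as higher and 0 as lower, with median log2 folds of 2.90 and 1.60. Over all genes 3.26% passed as higher. The summed linear intensity of the myeloid list was 1422 to 2425 in wild type and 9763 to 14450 in sanroque, and that of the B cell list was 2241 to 5618 against 8522 to 10470. No marker was listed at 0, and the dimmest myeloid marker, Cd14, read 4.40 to 4.63 in all 6 arrays. Wild type replicate 2 had the highest sum of its genotype for both lists. In sorted bulk samples, a change in the share of a cell type and a change of RNA per cell cannot be told apart.

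**Figure D1:**
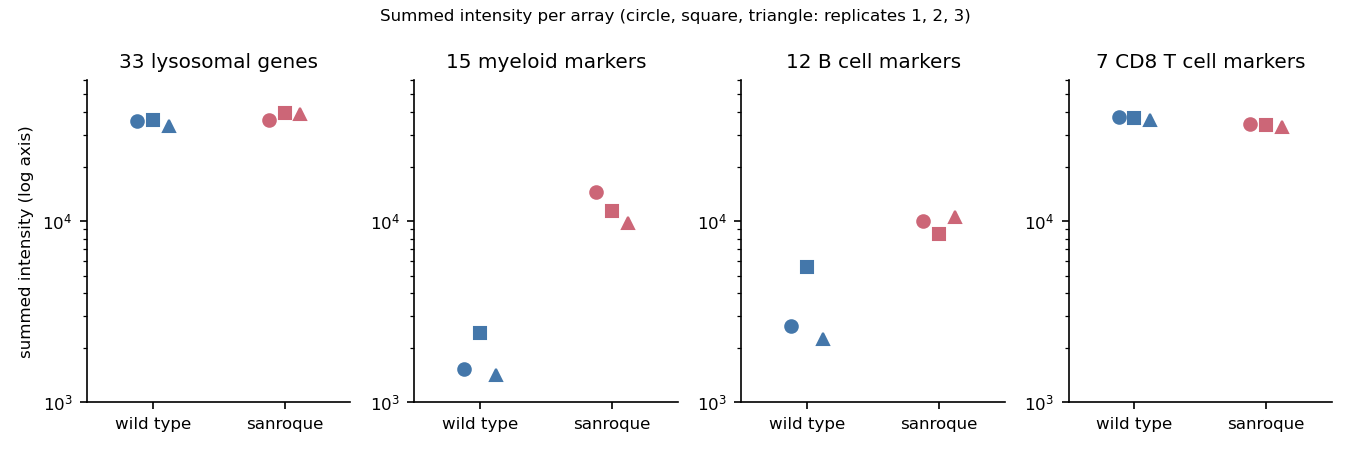
Summed linear intensity (log axis) of the 33 lysosomal genes, 15 myeloid, 12 B cell and 7 CD8 T cell markers in each array, with wild type in blue and sanroque in red. The myeloid and B cell sums are higher and the CD8 T cell sums lower in sanroque, without overlap. Wild type replicate 2 (square) is the highest wild-type array for the myeloid and B cell lists. The sum of the lysosomal genes is higher in sanroque by a narrow margin (33610 to 35980 against 36170 to 39460). Their median log2 intensity per array, not drawn, overlaps (8.81 to 8.93 against 8.92 to 9.05).

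Ctsh, Grn, Ctsb, Psap and Gaa rose in sanroque cells, and 0 of the 33 genes fell. Over all 19938 genes 5.77% were called in either direction, 3.26% as higher and 2.51% as lower, by limma at an adjusted p below 0.05. At an unadjusted p below 0.05 limma gave 9 members higher and 3 lower (Ctsl, Npc2 and Laptm4b). The share of all genes passing without adjustment was not counted, so these 2 counts have no background here. The same comparison without moderated variances called 0 members in either direction after adjustment, and 4 of all 19938 genes. Most members lie in the brighter part of the table, and among genes at or above the median level 9.74% were called and 4.83% were called higher. The median log2 fold of the members was 0.04, beside -0.03 for all genes, and 18 of 33 folds were above 0, beside 7673 of 19938 over all genes. Log2 folds ran from -0.33 in Laptm4b to 1.28 in Ctsh. Grn was called in all 6 fits that each dropped an array. In these fits the number of members called higher was 1 if wild type 1 or sanroque 2 was dropped, 2 if sanroque 1 was dropped, and 3 for each of wild type 2, wild type 3 and sanroque 3. The share of all genes called was 1.09%, 2.45% and 4.42% without wild type 1, 2 and 3. It was 3.02%, 1.97% and 6.60% without sanroque 1, 2 and 3. Dropping sanroque 1 and wild type 2 together gave 3 members (Ctsb, Ctsh and Grn) and 1.77% of all genes. Centring each array on its median kept the call of Grn and ended the other 4, with 3.16% of all genes called. With a score of the B cell and myeloid markers as a covariate 0 of the 33 and 0 of all genes were called. The log2 folds of Ctsh, Grn and Ctsb were then -1.07, -0.10 and -0.26, and those of Psap and Gaa were 0.33 and 0.14. The marker score did not overlap between the genotypes (-1.53 to -0.66 against 1.01 to 1.39), so marker level and genotype cannot be told apart.

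The values of the 3 arrays of each genotype did not overlap in 15 members, 10 higher and 5 lower in sanroque. Over all genes this held for 22.7%, split into 9.46% higher and 13.2% lower, and for genes at or above the median level 13.5% and 20.4%. The 10 were the 5 called genes with Lamp2, Man2b1, Ctsz, Ctsa and Tfeb. The 5 were Laptm4b, Ctsl, Npc2, Laptm4a and Gla.

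**Figure D2:**
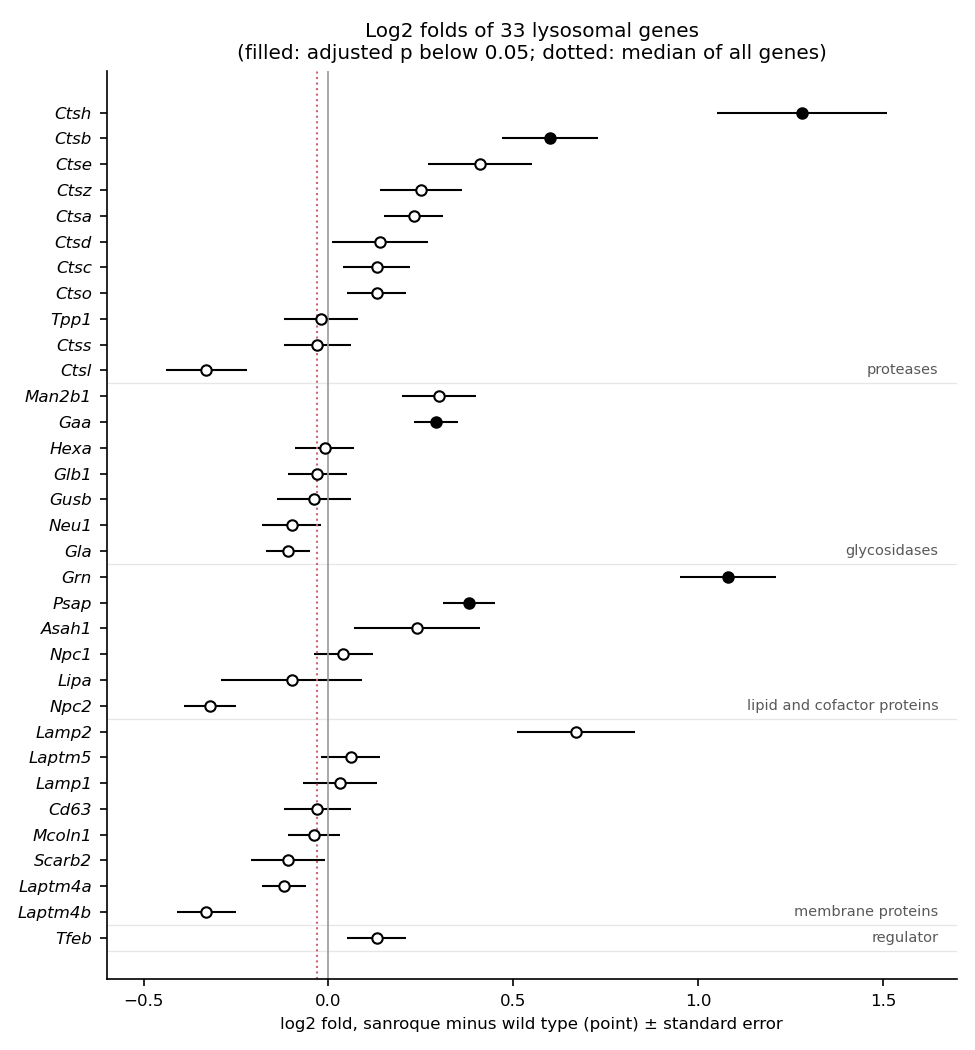
Log2 fold (sanroque minus wild type, x axis) ± standard error of limma's fit for the 33 lysosomal genes, grouped by role. Filled points passed at an adjusted p below 0.05, and the dotted line is the median of all genes at -0.03. Ctsh at 1.28 and Grn at 1.08 stand to the right of all other members.

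Proteases were the role with the largest single rise. Of 11, Ctsh and Ctsb rose, 0 fell and 9 did not pass, with a median log2 fold of 0.14. Ctsh encodes cathepsin H, an aminopeptidase of the papain family. In the order of the replicate numbers, its log2 intensity was 5.62, 6.56 and 5.74 for wild type against 7.38, 7.20 and 7.17 for sanroque. Every sanroque array lay above every wild-type array, and wild type replicate 2 lay closest to the sanroque group. The difference was 1.28 ± 0.23 on the log2 scale (SE), or 2.42-fold, with an adjusted p of 0.0268 in limma. The adjusted p was 0.106, 0.0697, 0.0801 and 0.0854 without wild type replicate 1, wild type replicate 3, sanroque replicate 1 and sanroque replicate 2, and 0.00208 without wild type replicate 2, where the log2 fold was 1.57. Ctsh is expressed strongly by myeloid and B cells, whose lists were higher on the same arrays. The part of those cells in its rise was not tested.

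Ctsb, which encodes the cysteine protease cathepsin B, read 8.95, 9.21 and 8.73 in the wild-type arrays against 9.44, 9.65 and 9.59 in the sanroque arrays. The groups were separate, again with wild type replicate 2 the nearest wild-type array. The log2 fold was 0.60 ± 0.13 (1.52-fold, limma adjusted p = 0.0417). Leaving out any array other than wild type replicate 2 ended the call, with adjusted p between 0.0665 and 0.158. Without wild type replicate 2 the adjusted p was 0.0273, and on the log2(intensity + 16) scale with all arrays it was 0.0590.

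The remaining 9 proteases had smaller differences. Ctsa, the carboxypeptidase that also protects beta-galactosidase and neuraminidase 1 in a complex, read 9.76, 9.83 and 9.72 in the wild-type arrays against 9.92, 10.13 and 9.94 in the sanroque arrays. Its groups did not overlap but it did not pass (log2 fold 0.23 ± 0.08, limma adjusted p = 0.166). The partners in that complex, Glb1 and Neu1, had log2 folds of -0.03 and -0.10. Ctsz, an exopeptidase of the same family as cathepsin B, read 9.64, 9.73 and 9.40 against 9.76, 9.77 and 9.99. These groups were separated by a gap smaller than the spread within either genotype (log2 fold 0.25 ± 0.11, limma adjusted p = 0.284). Ctse, an aspartic protease, had a log2 fold of 0.41 ± 0.14 with overlapping groups, since wild type replicate 2 at 7.20 lay above sanroque replicate 3 at 7.15.

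Ctsl was the protease with the lowest fold. It encodes cathepsin L, a cysteine endopeptidase. It read 7.67, 7.87 and 7.85 in the wild-type arrays against 7.66, 7.26 and 7.47 in the sanroque arrays, with wild type replicate 1 and sanroque replicate 1 almost at the same value. It did not pass (log2 fold -0.33 ± 0.11, limma adjusted p = 0.161). Ctss encodes cathepsin S, which trims the invariant chain in antigen-presenting cells and is also expressed in T cells. Its log2 fold had a 95% interval from -0.23 to 0.18, with 11.61, 11.53 and 11.37 in the wild-type arrays against 11.43, 11.42 and 11.58, so the groups overlapped fully. Cd74, the invariant chain itself, is one of the B cell markers and had a log2 fold of 2.08 on the same arrays.

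Ctsc, the activator of granzymes, read 10.86, 10.79 and 10.64 in the wild-type arrays against 10.82, 11.04 and 10.83 in the sanroque arrays. The groups overlapped and the difference did not pass (log2 fold 0.13 ± 0.09, 95% interval -0.09 to 0.35, limma adjusted p = 0.577). Ctsd, the main aspartic protease of lysosomes, had a log2 fold of 0.14 ± 0.13, with sanroque replicate 1 below all wild-type arrays at 11.24 and sanroque replicate 2 above them at 11.77. Ctso, a further papain-family protease, averaged 8.79 ± 0.06 and 8.93 ± 0.10 (wild type and sanroque, SD, n = 3), and the tripeptidyl peptidase gene Tpp1 averaged 8.24 ± 0.09 and 8.22 ± 0.18. Neither passed.

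Among 7 glycosidases Gaa rose, 0 fell and 6 did not pass, with a median log2 fold of -0.03. Gaa encodes acid alpha-glucosidase, which breaks down glycogen in the lysosome. It read 7.46, 7.50 and 7.42 in the wild-type arrays against 7.77, 7.72 and 7.76 in the sanroque arrays. The 2 groups were tight and apart, so a small difference of 0.29 ± 0.06 on the log2 scale (1.22-fold) passed with an adjusted p of 0.0432 in limma. Leaving out any single array ended the call (adjusted p 0.0773 to 0.167), as did both filters on dim genes (0.0583 and 0.0693) and a trended, robust variance (0.131), while its log2 fold stayed between 0.27 and 0.31.

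Man2b1, the lysosomal alpha-mannosidase, read 9.76, 9.89 and 9.80 in the wild-type arrays against 10.01, 10.02 and 10.32 in the sanroque arrays. All sanroque arrays were higher, but it did not pass (log2 fold 0.30 ± 0.10, limma adjusted p = 0.149). Gla, the alpha-galactosidase encoded on the X chromosome, read 7.79, 7.77 and 7.68 in the wild-type arrays against 7.60, 7.64 and 7.65 in the sanroque arrays. These groups did not overlap either, by a small margin, and Gla did not pass (log2 fold -0.11 ± 0.06, limma adjusted p = 0.457). Glb1 (beta-galactosidase), Gusb (beta-glucuronidase), Hexa (a chain of beta-hexosaminidase) and Neu1 (neuraminidase 1) had overlapping groups. Their wild-type means were 8.15, 8.12, 9.39 and 8.34 and their log2 folds -0.03, -0.04, -0.01 and -0.10, in that order. Their 95% intervals lay between -0.29 and 0.20 on the log2 scale.

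Of the 6 genes for lipid-handling proteins and cofactors, Grn and Psap rose, 0 fell and 4 did not pass, with a median log2 fold of 0.14. Grn encodes progranulin, a secreted and lysosomal protein that is cut into granulins. It read 8.11, 8.35 and 7.92 in the wild-type arrays against 9.38, 9.18 and 9.05 in the sanroque arrays. The lowest sanroque array lay well above the highest wild-type array, which was replicate 2. Grn rose by 1.08 ± 0.13 on the log2 scale, or 2.11-fold (limma adjusted p = 0.00704). Its adjusted p stayed between 0.00888 and 0.0486 when each array was left out, the highest of these without wild type replicate 1.

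Psap encodes prosaposin, the precursor of the saposins that help enzymes reach sphingolipids, and prosaposin also carries progranulin to the lysosome. It read 12.23, 12.32 and 12.29 in the wild-type arrays against 12.58, 12.71 and 12.68 in the sanroque arrays, with no overlap and little spread. The log2 fold was 0.38 ± 0.07 (1.30-fold, limma adjusted p = 0.0258). The call ended without wild type replicate 1 (adjusted p = 0.130), wild type replicate 2 (0.0644) or sanroque replicate 2 (0.106). Wild type replicate 2 had the highest wild-type value in all 5 called members. It was the highest wild-type array in 19 of the 33 members (57.6%), in 28.3% of all genes, in 44.6% of genes at or above the median level and in 55.7% of the 650 genes called higher. The same array held the highest myeloid and B cell sums among wild types, and the part of that in these genes was not tested.

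Neither gene of the cholesterol export pair passed. Npc2, the soluble protein that takes up cholesterol in the lysosome, read 10.44, 10.37 and 10.36 in the wild-type arrays against 9.98, 10.09 and 10.15 in the sanroque arrays. All sanroque arrays were lower, and the log2 fold of -0.32 ± 0.07 fell just short of the threshold (limma adjusted p = 0.0516). Npc2 was called lower without sanroque replicate 3 (adjusted p = 0.0498), with quantile normalization (0.0312), with array weights (0.00248) and on the log2(intensity + 16) scale (0.0413). Of all genes these settings called 6.60%, 7.94%, 23.7% and 4.92%, in that order. Npc1, the membrane protein that receives cholesterol from NPC2, averaged 8.92 ± 0.04 and 8.96 ± 0.10 (SD, n = 3), with overlapping groups and a log2 fold of 0.04 ± 0.08. Npc2 and Npc1 were not tested against each other. Lipa, the acid lipase that frees cholesterol from its esters, had widely spread sanroque values of 9.18, 9.40 and 9.96 against 9.71, 9.62 and 9.51 in wild type. Its log2 fold was -0.10 ± 0.19. Asah1, acid ceramidase, had a log2 fold of 0.24 ± 0.17, with wild type replicate 3 at 7.23 below the other 5 arrays (7.74 to 8.03).

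**Figure D3:**
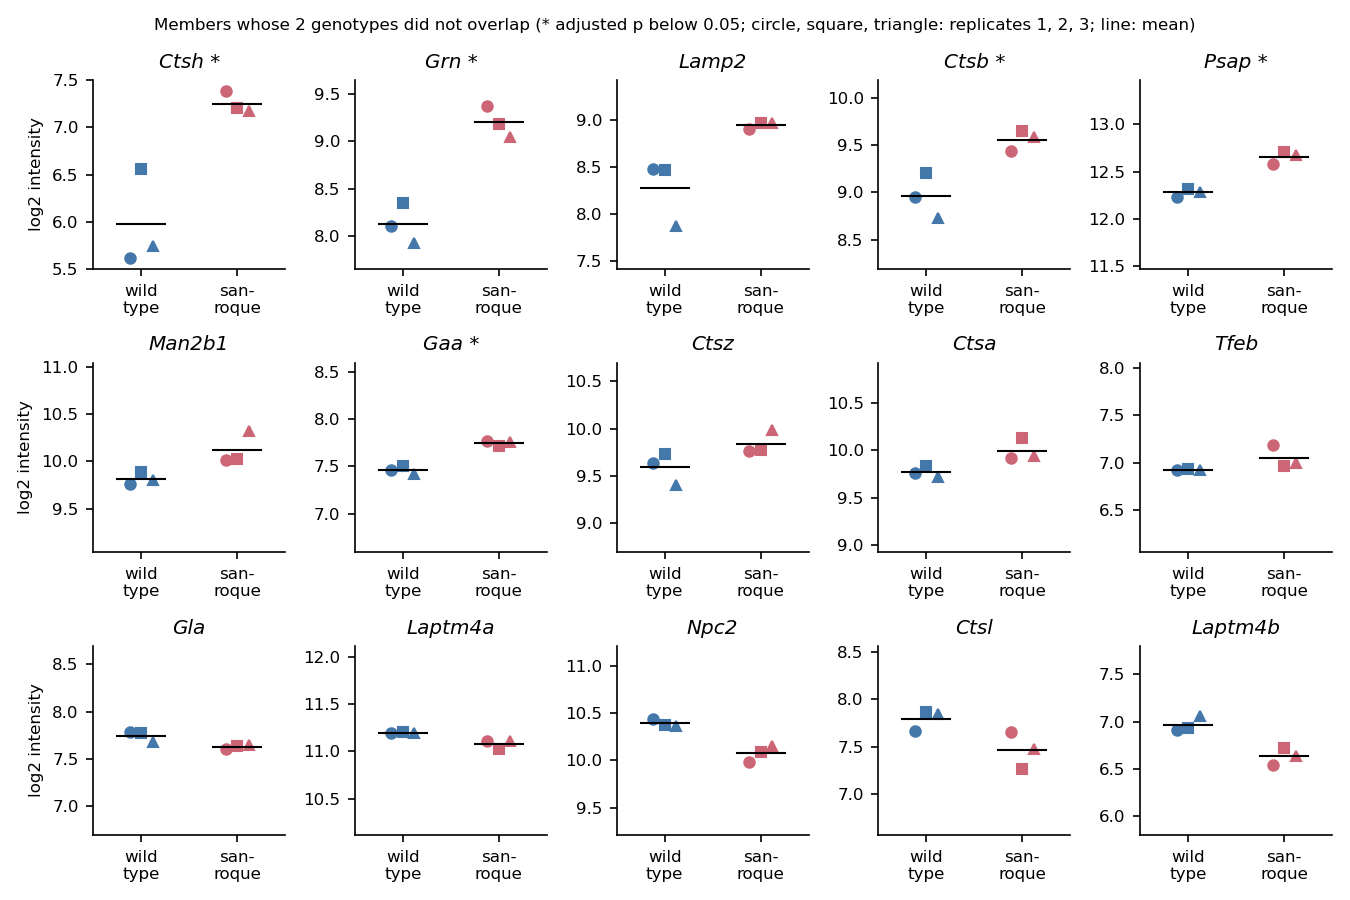
Log2 intensity in each array for the 15 lysosomal genes whose genotypes did not overlap, with wild type in blue, sanroque in red, the mean as a line and every panel at least 2 log2 units high. Stars mark the 5 genes with an adjusted p below 0.05, and the 2 groups of Ctsl nearly touch at 7.67 and 7.66.

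Of 8 genes for lysosomal membrane proteins 0 passed in either direction, with a median log2 fold of -0.03. Without adjustment Lamp2 and Laptm4b passed in limma, the first higher and the second lower, with no share of all genes counted beside them. Lamp2, a major glycoprotein of the lysosomal membrane that also serves autophagy, read 8.48, 8.47 and 7.88 in the wild-type arrays against 8.90, 8.96 and 8.96 in the sanroque arrays. The sanroque arrays were close together and all higher, while wild type replicate 3 lay far below the other 2. The log2 fold was 0.67 ± 0.16 with an adjusted p of 0.0599 in limma. Without wild type replicate 3 the log2 fold was 0.47 and Lamp2 passed (adjusted p = 0.0259). Lamp2 also passed under both filters on dim genes (0.0296 and 0.0297), with quantile normalization (0.0312), with a trended and robust variance (0.0299) and with array weights (0.00862). The 2 filters called 12.4% and 10.3% of the genes they kept. Of all genes, quantile normalization called 7.94%, the trended and robust variance 6.23% and array weights 23.7%. Lamp2 lies on the X chromosome, and without sanroque replicate 1, the array with high Xist, its log2 fold was 0.69.

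Lamp1, the other main glycoprotein of that membrane, had overlapping groups. It read 9.70, 10.00 and 9.90 in the wild-type arrays against 9.92, 10.02 and 9.76 in the sanroque arrays, and the 95% interval of its log2 fold ran from -0.21 to 0.28. The 2 differences were not tested against each other.

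The LAPTM genes encode small lysosomal proteins with several membrane passes. Laptm4b read 6.91, 6.93 and 7.06 in the wild-type arrays against 6.54, 6.72 and 6.64 in the sanroque arrays. All sanroque arrays were lower, and it missed the threshold (log2 fold -0.33 ± 0.08, limma adjusted p = 0.0557). Laptm4b was called lower with median centring (0.0470, where 3.16% of all genes were called), quantile normalization (0.0251, with 7.94%) and array weights (0.0139, with 23.7%). Its relative Laptm4a read 11.19, 11.21 and 11.19 against 11.11, 11.02 and 11.11, a small downward gap of -0.12 ± 0.06 that did not pass (limma adjusted p = 0.417). Laptm5, the leukocyte member, which promotes degradation of T cell receptor components, averaged 13.07 ± 0.08 and 13.13 ± 0.10 (SD, n = 3), with overlapping groups and a log2 fold of 0.06 ± 0.08.

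Scarb2, the carrier of glucocerebrosidase to the lysosome, and Mcoln1, the calcium channel TRPML1, had wild-type means of 9.27 and 8.98 and log2 folds of -0.11 ± 0.10 and -0.04 ± 0.07, with overlapping groups. Cd63, a tetraspanin of late endosomes and lysosomes, read between 4.04 and 4.30 in all 6 arrays. Its mean level stood at percentile 16.6 of all genes, near the low end of the scale, and its log2 fold was -0.03 ± 0.09. Tfeb, the regulator, read 6.92, 6.93 and 6.92 in the wild-type arrays against 7.19, 6.96 and 7.0 in the sanroque arrays. The sanroque values were higher by a narrow margin, mostly in replicate 1, and Tfeb did not pass (log2 fold 0.13 ± 0.08, 95% interval -0.06 to 0.31, limma adjusted p = 0.494).

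**Figure D4:**
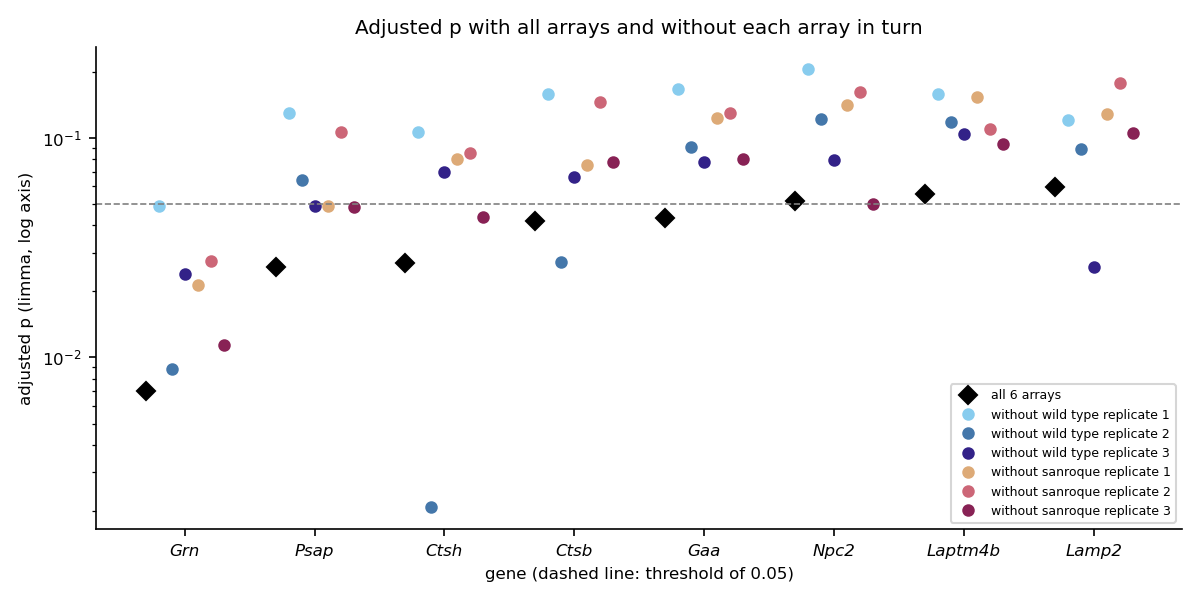
Adjusted p (limma, log axis) of 5 called members and of Npc2, Laptm4b and Lamp2, with all 6 arrays (diamonds) and without each array in turn (circles). Grn lies under the threshold of 0.05 in every fit shown, Gaa only with all 6 arrays, and Laptm4b in none.

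Other lysosomal genes, from lists made by textbook role, were read beside the members, with the same background of 5.77% called over all genes. Of 25 measured further hydrolases 3 rose and 0 fell, with a median log2 fold of 0.06. Lgmn, the asparaginyl endopeptidase legumain, rose by 1.57 ± 0.28 on the log2 scale, the carboxypeptidase gene Scpep1 by 1.28 ± 0.17 and the sulfatase gene Arsb by 1.14 ± 0.20. The 3 wild-type values of Lgmn were 6.04, 6.86 and 5.67, again with replicate 2 the highest. Without wild type replicate 1 the count of 3 was 0, and without sanroque replicate 1 it was 1, where 1.09% and 3.02% of all genes were called. Of 20 further membrane proteins 3 rose and 0 fell, with a median of 0.08: the macrophage-rich glycoprotein gene Cd68 (1.29 ± 0.15), the peptide and histidine transporter gene Slc15a3 (1.11 ± 0.13) and the acetyltransferase gene Hgsnat (0.42 ± 0.07).

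The genes that sort enzymes to the lysosome moved in both directions. Of 15, the phosphotransferase subunit gene Gnptab (0.80 ± 0.17), the mannose-6-phosphate receptor gene Igf2r (0.43 ± 0.10) and the adaptor gene Ap3b1 (0.29 ± 0.07) rose. Gnptg, the other subunit gene of the same phosphotransferase, fell by 0.48. Several of these calls lay close to the threshold. The limma adjusted p was 0.0403 for Gnptab, 0.0475 for Igf2r, 0.0494 for Ap3b1 and 0.0318 for Gnptg. Their calls without single arrays are not given here. Gnptab read 8.04, 8.24 and 8.05 in wild type against 8.80, 9.30 and 8.63, and Gnptg read 9.87, 9.59 and 9.74 against 9.14, 9.29 and 9.31. Neither pair of groups overlapped. Of 10 inhibitors of cathepsins and related proteases, Serpinb1a, a serpin of neutrophil proteases, rose by 1.29 ± 0.26 (limma adjusted p = 0.0383). The cystatin genes Cst3 and Cst7 had log2 folds of 0.36 and -0.02.

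**Figure D5:**
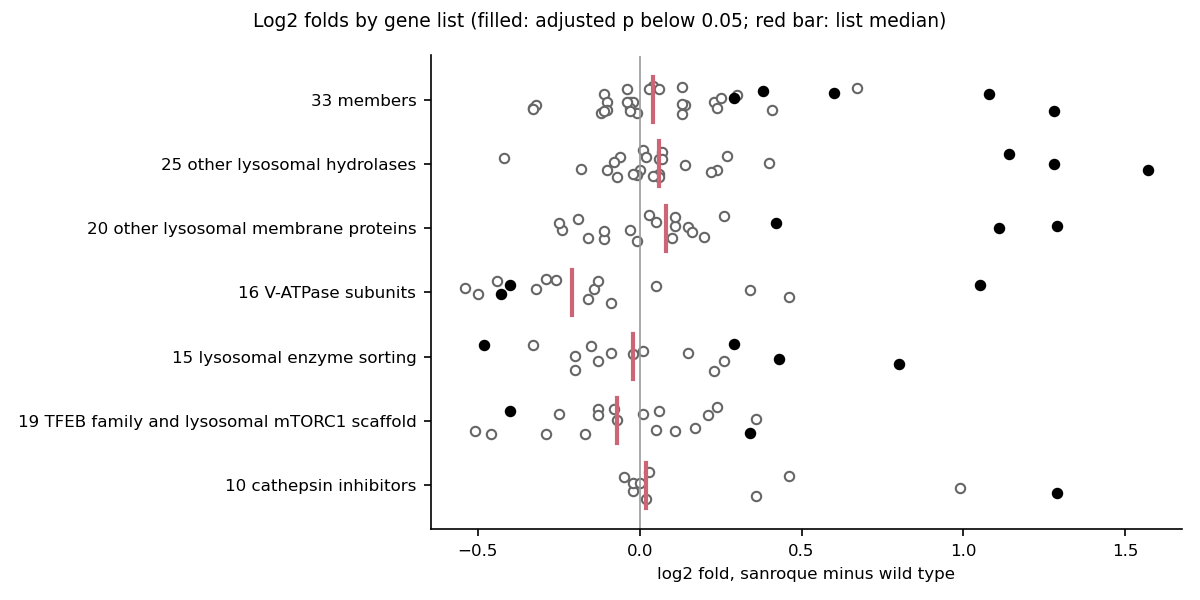
Log2 fold (sanroque minus wild type, x axis) of the 33 members and of 6 other lists of lysosomal genes, with 1 point per gene, filled where the adjusted p was below 0.05, and the list median as a red bar. Medians ran from -0.21 for the V-ATPase subunits to 0.08 for further membrane proteins.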

How the data were processed

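The deposited values are linear intensities, 1 for each probe set on each array (9.56 to 31996), as their range shows. Biotin-labelled cRNA was hybridised, per the labels' protocols, and Partek is named in the submitters' processing notes. How probes were summarized, corrected and normalized is not given in the sources used here. Each value was converted to log2. Of 35399 probe sets, 21789 had exactly 1 symbol, 1621 had several and 11989 had no listing. The GRCm38.p6 gene table gave current symbols (19856 of 19938 genes matched), and the probe set with the highest mean was kept. The genotypes were compared by lmFit and eBayes of limma 3.58.1 in R 4.3.3 (two-sided), with Benjamini-Hochberg adjustment over all 19938 genes and a threshold of 0.05. The script was tested on simulated data. The number of arrays limits the precision, and since probes differ in brightness, an order of genes by intensity served to filter or choose genes and to mark dim ones, not to compare their expression.

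The members, lists and added fits were chosen with earlier results of these data known, so no list was tested as a set. Members of every role are named. Of each pathway list the up to 4 called genes with the largest fold are named, otherwise those with the smallest p, and of each marker list those with the highest mean. Cd14, Cd3d, Itgax, Xist, the cystatin genes and the dimmer genes of the CD4 T cell and NK cell lists were named after their values were seen. Of the lists, genes with no probe set of 1 symbol were not used here. Alternatives changed the probe set rule, dim-gene filters (the median level, or log2 intensity above 5 in 3 arrays), scaling, variance model, array weights, an offset of 16, the replicate block and the arrays used. Added after seeing the data were a covariate and the joint removal of 2 arrays. Figures were drawn with matplotlib 3.10.9.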

Additional observations from a re-analysis of the deposited data

How the results depend on the processing

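The number of arrays limits every call. In place of 5 members higher, 1 to 3 were called when any single array was left out. The share of all genes called also changed in those fits, to between 1.09% and 6.60%, beside 5.77% with all arrays. The members called lower numbered 0 or 1 in those fits, and the further hydrolases called higher 0 to 4. Median centring called 1 member higher and 1 lower, with 3.16% of all genes called. One-way ANOVA without moderation called 0 higher (4 genes of all 19938 passed it). Quantile normalization called 7 higher and 2 lower, with 7.94% of all genes called. Array weights called 10 higher and 2 lower, with 23.7% of all genes called. The log2(intensity + 16) scale called 4 higher and 1 lower, with 4.92% of all genes called. One-way ANOVA called 0 further hydrolases higher and array weights called 7. The joint removal of sanroque replicate 1 and wild type replicate 2 left 3 members higher.

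With the mean of the B cell and myeloid list medians of each array as a covariate, 0 members and 0 further hydrolases were called, as were 0 of all 19938 genes. The median log2 fold of the members was then -0.06, and those of Ctsb, Ctsh and Grn were -0.26, -1.07 and -0.10. Psap and Gaa had log2 folds of 0.33 and 0.14 in that fit. The covariate ran from -1.53 to -0.66 in wild type and from 1.01 to 1.39 in sanroque. It and genotype cannot be told apart well in 6 arrays. The replicate number as a block left 1 member (Grn) called higher, with 1.51% of all genes called. Arrays of the same number did not deviate together (correlations across genes of -0.05, -0.16 and -0.36), so they share a number and no pairing is known. The cause of these changes was not tested. The members' median fold otherwise lay between -0.01 and 0.09 and the count of non-overlapping members between 11 and 19.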

Other observations

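The proton pump that acidifies the lysosome, the V-ATPase, is built from many subunits. Of 16 measured V-ATPase subunits, Atp6v1d and Atp6v0e fell by 0.43 and 0.40 on the log2 scale (limma adjusted p = 0.0217 and 0.0469). Atp6v0a1 rose by 1.05 ± 0.15 (limma adjusted p = 0.0133), and 13 did not pass. Over all genes 5.77% were called in either direction, and at or above the median level 9.74%. The median log2 fold of the subunits was -0.21. The genotypes did not overlap in 7 subunits lower and 3 higher in sanroque. All genes gave 13.2% and 9.46%, and genes at or above the median level 20.4% and 13.5%. Atp6v1d read 10.23, 10.25 and 10.15 in the wild-type arrays against 9.81, 9.69 and 9.86 in the sanroque arrays. Atp6v1f, with 10.81, 10.77 and 10.58 against 9.98, 10.14 and 10.43, had a log2 fold of -0.54 and missed the threshold (limma adjusted p = 0.0576). Atp6v0a1 read 5.12, 5.20 and 5.04 in the wild-type arrays against 6.16, 5.86 and 6.49 in the sanroque arrays. Tcirg1, another gene for an a subunit of the pump, was higher in all sanroque arrays at 8.61, 8.70 and 8.89 against 8.38, 8.40 and 8.39, and did not pass (limma adjusted p = 0.0684).

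The scaffold that holds mTORC1 at the lysosome was read with the relatives of Tfeb. Of 19 genes, Rheb, the GTPase that activates mTORC1, fell by 0.40 (limma adjusted p = 0.0430), from 9.55, 9.56 and 9.32 to 9.02, 9.11 and 9.11. Fnip2, a partner of folliculin, rose by 0.34 ± 0.07 (limma adjusted p = 0.0390). The share called in either direction was 5.77% over all genes and 9.74% at or above the median level. The Ragulator subunit genes Lamtor2 and Lamtor3 had log2 folds of -0.51 and -0.46 and did not pass (limma adjusted p = 0.0868 and 0.0774). Lamtor4 and Lamtor5 were also lower in every sanroque array and did not pass, while Lamtor1 had overlapping groups (log2 fold -0.13). Of the 19 genes, 5 were lower and 4 higher without overlap. Over all genes this held for 13.2% and 9.46%, and at or above the median level for 20.4% and 13.5%. Tfe3, a relative of Tfeb, had a log2 fold of 0.24 with overlapping groups. The Ragulator genes, Atp6v1f, Tcirg1 and Tfe3 were picked with their values known. Marker lists not given above had 4 of 6 plasma cell, 2 of 6 CD4 T cell, 2 of 6 NK cell and 1 of 9 dendritic cell genes called higher, and 0 of 2 erythroid and 0 of 7 platelet and basophil or mast cell genes. None of these genes was called lower, and over all genes 3.26% were called higher. The lists are named by cell type, but bulk values do not show which cells gave a gene's signal. These counts therefore do not show that those cells were more frequent in sanroque. The called gene of the dendritic list was Itgax, with a log2 fold of 1.96. Ccr9 and Bst2, the brightest of that list, had -0.64 and -0.09 and did not pass. Among the brightest of the other lists Lyz2 (3.12), H2-Ab1 (1.79), Xbp1 (0.75), Jchain (3.28), Ikzf2 (1.07) and Eomes (1.29) rose. Of the NK cell list Klre1 (0.83) rose too, while Ncr1 (-0.12), Klri2 (-0.01) and Klra8 (0.21) did not pass. Of the CD4 T cell list Zbtb7b (0.80) rose too, while Cd4 (0.95), Foxp3 (0.38) and Cd40lg (0.27) did not pass. Ms4a6c (0.50), Tnfrsf4 (-0.10), Klrb1c (0.94), Slc4a1 (0.63), Alas2 (0.25), Itga2b (-0.09) and Gp9 (0.03) did not pass, nor did Cd3g (-0.14) of the sorted CD8 T cells. The part of other cells in the differences of lysosomal genes was not tested.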
